A study of Rattus norvegicus with 13 samples.

Results

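Transcripts of 10 genes that mark cortical inhibitory interneurons and their neuropeptides were followed in rat frontal cortex after experimental head trauma: Gad1, Gad2, Pvalb, Calb2, Vip, Sst, Cort, Npy, Cck and Crh. They were taken as every array probe that carries one of these names, which gave 13 probes for 10 genes of the 17577 genes tested. The animals were male Sprague–Dawley rats, and total RNA of their frontal cortex was taken at 1 month. The groups were rotational trauma (head acceleration rotational injury, 3 arrays) with its own rotational sham (3 arrays), and percussion trauma (lateral fluid percussion, 3 arrays) with a separate percussion sham (4 arrays). Sham rats underwent the anaesthesia and the whole operation, with the trauma itself left out, so surgery is matched only inside each model. Whether both models used the same operation is not given in the labels, so surgery may differ between the sham groups. The age of the rats and whether any RNA was pooled are not stated in the labels. Each sample had its own 1-colour array, and the labels do not say more of how replicates were taken, and p-values here reflect only how these samples varied, which may in part be technical.

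Inhibitory interneurons make the transmitter GABA and are sorted into classes by the calcium-binding proteins and peptides they contain. Parvalbumin marks fast-spiking cells that contact the cell bodies of pyramidal neurons. Somatostatin marks cells that contact their dendrites, many of which also hold neuropeptide Y or the somatostatin relative cortistatin. Vasoactive intestinal peptide marks cells that mainly inhibit other interneurons. Neuropeptide transcripts in these cells are known to vary with neuronal activity, so they report on both cell number and cell state. In RNA from whole tissue, fewer cells of a type and less RNA per cell cannot be told apart.

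Cortistatin and somatostatin share the core of their peptides, so the Cort probe is shown with a part of that core marked. Its 60 bases lie on the minus strand of rn4 chr5:166199061-166199120. The capitals are bases 32 to 46, counted from 1 at the 5′ end. Read in frame they encode the residues FFWKT, which are part of the shared core. The Sst probe does not contain these 15 bases, so the pair was measured on different sequence.
Cort probe: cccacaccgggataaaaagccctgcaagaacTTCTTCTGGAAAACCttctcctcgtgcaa

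Promoters are shown for Cort and Npy, the pair with the lowest p-values after percussion trauma, and for Sst, whose promoter is a textbook target of the activity-regulated factor CREB. They run from 250 bases before to 50 bases after the annotated start, from RefSeq on GRCr8, and are written 5′ to 3′ along the gene. Capitals mark the CREB half-site TGACG on either strand (CGTCA on the other), and the whole palindrome TGACGTCA where both half-sites overlap. The windows are chr5:164845075-164845374 on the minus strand for Cort, chr4:80211861-80212160 on the plus strand for Npy and chr11:90461296-90461595 on the plus strand for Sst.
Cort promoter: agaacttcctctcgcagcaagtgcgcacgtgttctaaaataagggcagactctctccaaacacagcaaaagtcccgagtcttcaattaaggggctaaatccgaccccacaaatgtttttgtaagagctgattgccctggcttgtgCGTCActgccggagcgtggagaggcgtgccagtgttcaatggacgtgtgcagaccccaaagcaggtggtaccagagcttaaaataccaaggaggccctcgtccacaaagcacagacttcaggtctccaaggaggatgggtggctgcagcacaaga
Npy promoter: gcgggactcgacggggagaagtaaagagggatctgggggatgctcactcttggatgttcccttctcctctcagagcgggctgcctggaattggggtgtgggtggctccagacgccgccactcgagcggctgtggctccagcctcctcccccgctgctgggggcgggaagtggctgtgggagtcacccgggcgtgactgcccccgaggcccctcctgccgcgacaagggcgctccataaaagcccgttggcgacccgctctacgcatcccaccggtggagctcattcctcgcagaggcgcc
Sst promoter: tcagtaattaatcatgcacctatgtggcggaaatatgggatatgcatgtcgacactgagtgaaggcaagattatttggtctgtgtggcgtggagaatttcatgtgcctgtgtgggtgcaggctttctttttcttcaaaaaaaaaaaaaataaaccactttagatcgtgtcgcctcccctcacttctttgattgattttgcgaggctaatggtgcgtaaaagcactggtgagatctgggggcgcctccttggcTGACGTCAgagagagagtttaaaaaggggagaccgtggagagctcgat
The Cort window held 1 half-site, which begins at position −105 relative to the start, and the Npy window held 0 of these letters. The Sst window held the whole palindrome, which begins at position 2 on the same count, after the annotated start. Of the 10 genes 7 had a promoter entry, and 4 of the 7 held a half-site (Cort, Sst, Vip and Pvalb), against 7097 of all 33469 promoters of this length (21.2%). The palindrome was in 612 promoters (1.83%). A match describes the letters and is not a measured binding site.

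All 13 probes were well above background on 13 of 13 arrays and 0 were saturated on any array. Between 67.0% and 74.1% of the spots of an array were well above background. This share was 72.7% to 73.8% on percussion trauma arrays and 67.6% to 69.4% on percussion sham arrays, and 67.0% to 72.5% on rotational trauma arrays and 73.1% to 74.1% on rotational sham arrays. Trauma and sham of a model lay in different columns of 1 slide, so slide column and trauma cannot be told apart within a model. Of 8 markers of excitatory cortical neurons, among them Slc17a7, 8 passed the same filter. So did 12 of 14 olfactory bulb genes and 10 of 10 meningeal genes, so passing it does not check the cortical label. Levels below are log2 signals minus the 75th percentile of the same array, so 0 is the level of that percentile and a step of 1 is a 2-fold change. Levels of different genes come from different probes and are not set against each other. The mean level of striatal genes ran from −0.39 to 1.35 in rotational sham and from −0.34 to 0.31 in rotational trauma. It ran from −0.41 to −0.34 in percussion sham and from −0.58 to −0.36 in percussion trauma. The part of striatal tissue in the levels below was not tested.

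The first comparison set rotational trauma against rotational sham. None of the 10 genes passed an adjusted p of 0.05 in limma (Benjamini-Hochberg over all 17577 genes), where 0.0114% of all genes passed. At an unadjusted p under 0.05 the count was 0 of 10, against 6.67% of all genes. For 0 of 10 did the 3 trauma arrays lie wholly above or below the 3 sham arrays, which 15% of all genes did. The estimates ran from −0.19 (Cort) to 0.44 (Calb2), and 7 of 10 were below 0, as were 52.5% of all genes, and their median log2 difference was −0.06 against −0.01 for all genes. The widest interval was that of Calb2, and the narrowest that of Npy.

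The second comparison set percussion trauma against percussion sham. Here Cort and Npy had lower signals on each of the 3 trauma arrays than on any of the 4 sham arrays, Cort at 65.0% and Npy at 81.2% of sham by the fitted means. Neither passed over all genes: 0 of 10 genes passed the adjusted p, and 0% of all genes did. At an unadjusted p under 0.05, 2 of 10 genes were called, both lower, against 11.4% of all genes in either direction and 4.6% lower. Likewise 2 of 10 had groups that did not overlap, against 9.59% of all genes and 4.42% lower. Without the filter on dim probes both passed (adjusted p = 0.0227 for Cort and 0.0371 for Npy by limma), as did 11.9% of 26257 genes, and 2838 of the 3113 genes called were among the 8680 that the filter had removed. Of the 10 genes 6 were below 0, against 50.9% of all genes, with a median of −0.08 against 0.00 for all genes.

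**Figure D1:**
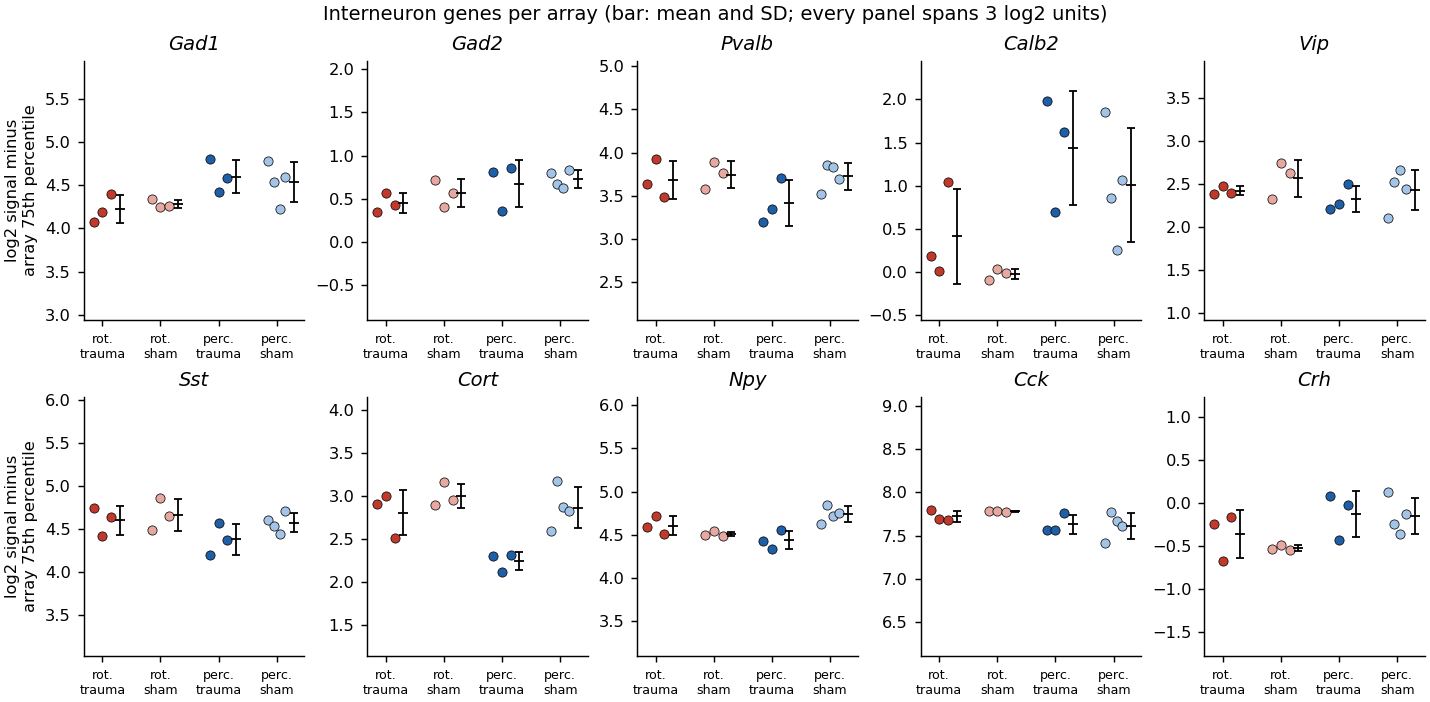
Level of each of the 10 genes on every array (vertical axis: log2 signal minus the array's 75th percentile, each panel spanning 3 log2 units), with rotational trauma, rotational sham, percussion trauma and percussion sham from left to right. Points are arrays and bars the mean and SD of the group. The percussion trauma points of Cort and Npy lie below all percussion sham points, and Calb2 spreads widely within 3 of the 4 groups.

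The GABA-synthesising enzymes are glutamate decarboxylases, and Gad1 encodes the form that makes most of the cell's GABA. Gad1 was at 4.08, 4.19 and 4.40 on the rotational trauma arrays and at 4.34, 4.25 and 4.26 on the rotational sham arrays. It was at 4.80, 4.42 and 4.58 on the percussion trauma arrays and at 4.78, 4.54, 4.23 and 4.60 on the percussion sham arrays. Groups overlapped in both models, and the lowest percussion value was a sham array. The log2 difference was −0.06 (95% interval −0.36 to 0.25) for rotational trauma and 0.06 (−0.23 to 0.35) for percussion trauma. A second Gad1 probe, at rn4 chr3:52813028-52813087 against chr3:52829951-52830010 for the first, gave −0.02 and 0.11.

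Gad2 encodes the form found mainly at nerve terminals. It was at 0.34, 0.57 and 0.43 after rotational trauma and at 0.72, 0.40 and 0.57 in rotational sham. It was at 0.81, 0.36 and 0.85 after percussion trauma and at 0.80, 0.67, 0.62 and 0.83 in percussion sham. Both models overlapped, and percussion trauma held both the lowest and the highest value of its model. The differences were −0.12 (95% interval −0.41 to 0.17) and −0.05 (−0.32 to 0.22).

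Among the calcium-binding proteins, Pvalb encodes parvalbumin. It was at 3.63, 3.92 and 3.49 after rotational trauma and at 3.58, 3.89 and 3.76 in rotational sham, which overlapped fully. It was at 3.20, 3.34 and 3.71 after percussion trauma and at 3.52, 3.86, 3.83 and 3.69 in percussion sham. A pair of the 3 percussion trauma arrays lay below all sham arrays and the third lay inside their range. The differences were −0.06 (SE 0.15) and −0.31 (SE 0.14, adjusted p = 0.448 by limma), and the percussion interval ran from −0.63 to 0.01.

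Calb2 encodes calretinin, which marks many Vip cells of the cortex and is also abundant in olfactory bulb interneurons. It was at 0.19, 0.01 and 1.04 after rotational trauma and at −0.09, 0.03 and −0.01 in rotational sham. It was at 1.98, 0.70 and 1.62 after percussion trauma and at 1.85, 0.86, 0.26 and 1.07 in percussion sham. Within percussion trauma and within percussion sham the arrays differed by over 1 log2 unit, more than the group means differed. The differences were 0.44 (SE 0.41) and 0.42 (SE 0.38, adjusted p = 0.705 by limma), with intervals that reached from −0.46 to 1.34 and from −0.42 to 1.26.

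Vip, the vasoactive intestinal peptide gene, was at 2.38, 2.48 and 2.40 after rotational trauma and at 2.33, 2.74 and 2.63 in rotational sham. It was at 2.21, 2.27 and 2.50 after percussion trauma and at 2.11, 2.52, 2.66 and 2.44 in percussion sham. The lowest value of each model was a sham array. The differences were −0.15 (95% interval −0.46 to 0.17) and −0.10 (−0.40 to 0.19).

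Sst encodes somatostatin, an inhibitory peptide. It was at 4.75, 4.42 and 4.64 after rotational trauma and at 4.49, 4.86 and 4.65 in rotational sham. It was at 4.20, 4.57 and 4.37 after percussion trauma and at 4.61, 4.54, 4.44 and 4.71 in percussion sham. Here too a pair of percussion trauma arrays was below all sham arrays and the third was among them. The differences were −0.06 (SE 0.13) and −0.20 (SE 0.12, adjusted p = 0.556 by limma).

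Cort encodes cortistatin, which binds the somatostatin receptors. It was at 2.91, 3.00 and 2.51 after rotational trauma and at 2.89, 3.16 and 2.95 in rotational sham. It was at 2.30, 2.12 and 2.31 after percussion trauma and at 2.59, 3.17, 2.87 and 2.83 in percussion sham. Rotational trauma 3 was the lowest array of the rotational model and the other rotational values overlapped, while all percussion trauma arrays lay below all percussion sham arrays. The percussion means were 2.25 ± 0.10 (SD, n = 3) in trauma and 2.87 ± 0.24 (SD, n = 4) in sham, a log2 difference of −0.62 (SE 0.15, adjusted p = 0.225 by limma). By p-value Cort was the gene at rank 101 of 17577. The rotational difference was −0.19 (SE 0.16, adjusted p = 0.968).

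Npy encodes neuropeptide Y, which dampens transmitter release. It was at 4.59, 4.72 and 4.51 after rotational trauma and at 4.50, 4.54 and 4.49 in rotational sham. It was at 4.43, 4.34 and 4.55 after percussion trauma and at 4.63, 4.85, 4.72 and 4.75 in percussion sham. All percussion trauma arrays were below all percussion sham arrays, while the rotational arrays overlapped with 2 trauma arrays above the sham arrays. The percussion difference was −0.30 (SE 0.08, adjusted p = 0.235 by limma, rank 174) and the rotational one 0.10 (SE 0.08, adjusted p = 0.975).

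A second Npy probe, at rn4 chr4:78043176-78043235 against chr4:78045125-78045184 for the first, was at 1.84, 1.84 and 1.93 after percussion trauma and at 1.97, 2.18, 2.05 and 2.06 in percussion sham. It too was lower on every percussion trauma array, by −0.19 (SE 0.07, adjusted p = 0.364 by limma over all kept probes). Its rotational difference was 0.14, so both probes had the same pair of signs.

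Cck, the cholecystokinin gene, is made by a class of basket cells and also by many pyramidal neurons. It was at 7.80, 7.69 and 7.68 after rotational trauma and at 7.79, 7.78 and 7.77 in rotational sham. It was at 7.56, 7.57 and 7.76 after percussion trauma and at 7.41, 7.77, 7.67 and 7.61 in percussion sham. The rotational sham arrays lay within 0.02 of each other, and groups overlapped in both models. The differences were −0.06 (95% interval −0.26 to 0.15) and 0.02 (−0.17 to 0.21).

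Crh encodes corticotropin-releasing hormone, which some cortical interneurons release locally. It was at −0.24, −0.68 and −0.17 after rotational trauma and at −0.54, −0.49 and −0.55 in rotational sham. It was at 0.08, −0.43 and −0.03 after percussion trauma and at 0.13, −0.25, −0.36 and −0.13 in percussion sham. Groups overlapped in both models. The differences were 0.16 (95% interval −0.20 to 0.53) and 0.02 (−0.32 to 0.37), and a second Crh probe gave 0.12 and −0.05.

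**Figure D2:**
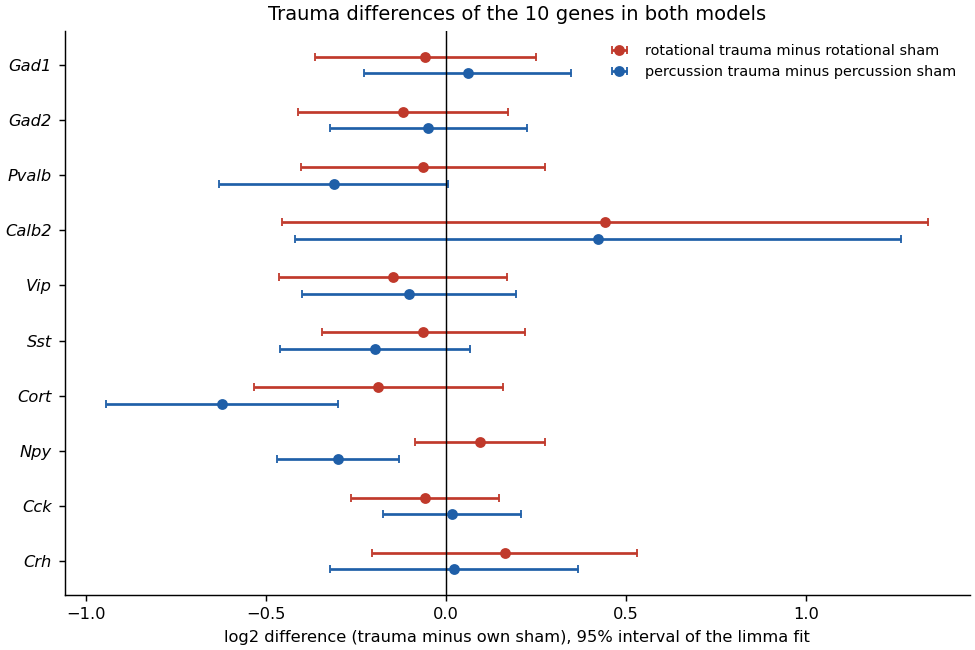
Fitted log2 difference of trauma minus the sham of the same model for the 10 genes (horizontal axis, points with 95% intervals of the limma fit, not adjusted for the number of genes), with the rotational model above the percussion model in each pair. The percussion intervals of Cort and Npy lie below 0, and every other interval includes 0.

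The mean of the 2 trauma effects and the difference between them were fitted next. For the mean, 0 of 10 genes passed the adjusted p, and 0% of all genes did. At an unadjusted p under 0.05 it was 1 of 10, Cort with −0.41 (SE 0.11, adjusted p = 0.246 by limma), against 8.8% of all genes. For the difference, rotational effect minus percussion effect, 0 of 10 passed the adjusted p and 0.0114% of all genes did. At an unadjusted p under 0.05 it was again 1 of 10, against 8.06% of all genes. That gene was Npy with 0.40 (SE 0.11, adjusted p = 0.346 by limma), whereas Cort had 0.43 (SE 0.22, adjusted p = 0.648). The models were therefore not shown to differ for either gene, and such a difference could not be told apart from slide column. Trauma lay in column 2 and sham in column 1 of the rotational slide, and the reverse held on the percussion slide. Without the filter on dim probes Npy passed this test (adjusted p = 0.049 by limma), as did 14.8% of genes.

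The percussion values of Cort and Npy moved together with each other and with other genes of the same arrays. Over the 13 arrays, centred within each model, Cort and Npy correlated at r = 0.85 (Spearman 0.78), and at 0.69 without the 2 arrays farthest from the median. Within the 4 groups r was 0.86, so the tie was also there within groups. It was 0.97 over the 7 percussion arrays and 0.31 over the 6 rotational arrays. These correlations describe arrays that share their scaling, and no p is given for them.

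Pan-neuronal genes, 10 of 10 measured, were also lower after percussion trauma in 8 of 10 cases, with a median of −0.08 against 0.00 for all genes. Their mean level per array ran from 2.61 to 2.79 in percussion trauma and from 2.73 to 2.90 in percussion sham. Rbfox3, which encodes the neuronal nuclear protein NeuN, had the lowest p among them with −0.52 (adjusted p = 0.254 by limma), and Nefl had the lowest p above 0 with 0.05. After rotational trauma Nefm had 0.10 and Snap25 −0.18, the lowest p in each direction. Npy followed this mean level at r = 0.85 over the 13 centred arrays, at 0.88 in the percussion and at 0.91 in the rotational model. Pvalb followed it at 0.82 (0.95 percussion, 0.31 rotational) and Cort at 0.73 (0.82 and 0.14), while Vip reached 0.51 (0.70 and −0.42). Without the 2 arrays farthest from the median these were 0.82 for Npy, 0.61 for Pvalb, 0.65 for Cort and 0.38 for Vip.

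With every array scaled by its pan-neuronal genes, the percussion difference was −0.50 for Cort (adjusted p = 0.115 by limma) and −0.18 for Npy (adjusted p = 0.172). That scaling raised the percussion difference of the median gene by 0.12. It put 78.4% of all genes above 0 against 49.1% before. The same amount is added to every gene, so this is a change of the zero point and no test of the neuronal share.

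**Figure D3:**
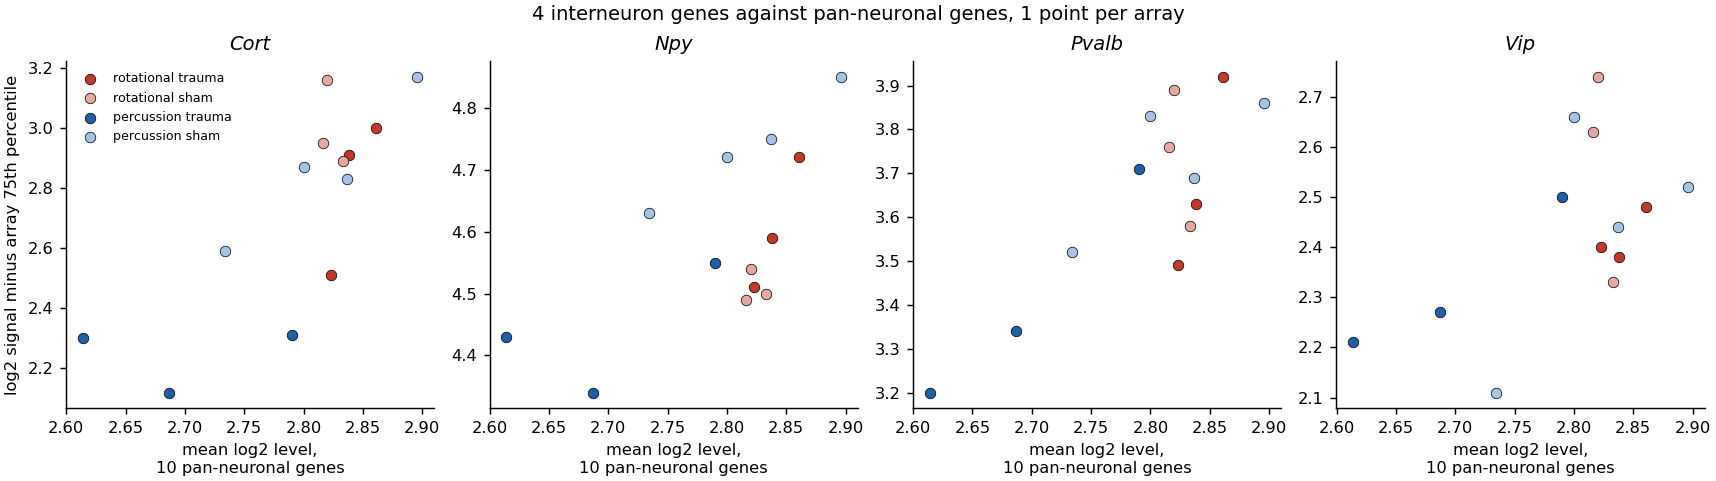
Level of Cort, Npy, Pvalb and Vip (vertical axes, log2 signal minus the array's 75th percentile) against the mean level of 10 pan-neuronal genes on the same array (horizontal axes, same scale), 1 point per array coloured by group. In the Npy and Pvalb panels r over the 7 percussion arrays was 0.88 and 0.95, and the rotational arrays span a narrow range of 2.82 to 2.86.

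Other gene groups moved with the percussion comparison as well. Of 14 measured immediate early genes, which neurons induce on firing, 13 were lower after percussion trauma, with a median of −0.58 and 0 past the threshold. Arc had −1.10 (adjusted p = 0.206 by limma). Their mean level ran from −0.35 to 0.04 on percussion trauma arrays and from 0.06 to 0.68 on percussion sham arrays. Bdnf was the gene above 0, with 0.04. After rotational trauma 9 of 14 were lower, with a median of −0.06, Dusp1 at 0.64 (adjusted p = 0.484) and Homer1 at −0.25 (adjusted p = 0.645). Rotational trauma arrays ran from −1.05 to −0.70 and rotational sham arrays from −1.02 to −0.78, so all rotational arrays lay below all percussion arrays. In percussion sham against rotational sham 11 of 14 were higher and 8 of them passed, while 21.6% of all genes passed in either direction. The median of the 14 was 0.89, and Arc had 3.39 (adjusted p = 3.89e-05 by limma). Over the percussion arrays the mean immediate early level correlated at 0.64 with Cort and at 0.58 with Npy, and over the rotational arrays at −0.35 and −0.47. Inside the 4 groups r was −0.17 for Cort and −0.35 for Npy, so the positive tie was not there within groups.

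Meningeal genes, 10 of 10 measured, were higher in 10 of 10 cases in each model, with 0 past the threshold. Ogn had the lowest p after rotational trauma with 2.10 (adjusted p = 0.103) and Igf2 after percussion trauma with 1.69 (adjusted p = 0.206). Their mean level ran from 0.80 to 2.03 on percussion trauma arrays and from −0.52 to 0.44 on percussion sham arrays, and from 0.64 to 1.60 on rotational trauma arrays and from −0.42 to 0.38 on rotational sham arrays. Over the percussion arrays the meningeal level correlated at −0.79 with Cort and at −0.85 with Npy. Within the 4 groups r was −0.24 for Cort and −0.47 for Npy. Astrocyte genes, 8 of 8 measured, ran from 1.33 to 1.57 on percussion trauma arrays and from 1.07 to 1.25 on percussion sham arrays. They ran from 1.17 to 1.51 on rotational trauma arrays and from 1.40 to 1.48 on rotational sham arrays. Their genes of lowest p were Gjb6 (0.52) and Fgfr3 (−0.27) after rotational trauma, and Fgfr3 (0.27) and Gjb6 (−0.13) after percussion trauma. The largest percussion differences were those of Gfap (0.96, adjusted p = 0.311 by limma) and Sox9 (0.86, adjusted p = 0.321). After rotational trauma these were −0.34 and −0.63. The part of the neuronal, immediate early, meningeal, astrocyte and detection differences in the lower Cort and Npy signals was not tested.

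Calb2, Gad1 and Crh varied together between arrays. Over the 13 arrays, centred within each model, Calb2 correlated with Crh at r = 0.88 and with Gad1 at 0.83. A list of 14 genes typical of the olfactory bulb was set beside them, chosen after the Calb2 values had been seen, and 12 of the 14 were measured (Eomes and Sp8 were not among the tested genes). Its mean level per array ran from −1.53 to −0.23 in rotational trauma, from −1.61 to −1.08 in rotational sham, from −0.05 to 0.82 in percussion trauma and from −0.90 to 0.72 in percussion sham. Calb2 followed this level at r = 0.92 (Spearman 0.82), and at 0.89 over the rotational and 0.95 over the percussion arrays. Without the 2 arrays whose uncentred bulb level was farthest from its median, r was 0.95. These were rotational sham 2 and rotational trauma 2, so rotational trauma 3 stayed in. That array had Calb2 at 1.04, against −0.09 to 0.19 on the other rotational arrays, and the rotational r was not computed without it. Gad1 followed the bulb level at 0.84 (0.59 rotational, 0.97 percussion) and Crh at 0.82 (0.77 and 0.85), while Gad2 reached 0.32 (−0.13 and 0.58). Other genes of the 10 ran against it: Vip at −0.69 (−0.58 rotational, −0.76 percussion), Pvalb at −0.67 (−0.90 and −0.57) and Cort at −0.57 (−0.98 and −0.41). Within the 4 groups r was −0.65 for Vip, −0.65 for Pvalb and −0.55 for Cort. Npy was at −0.34, Cck at −0.41 and Sst at −0.12.

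**Figure D4:**
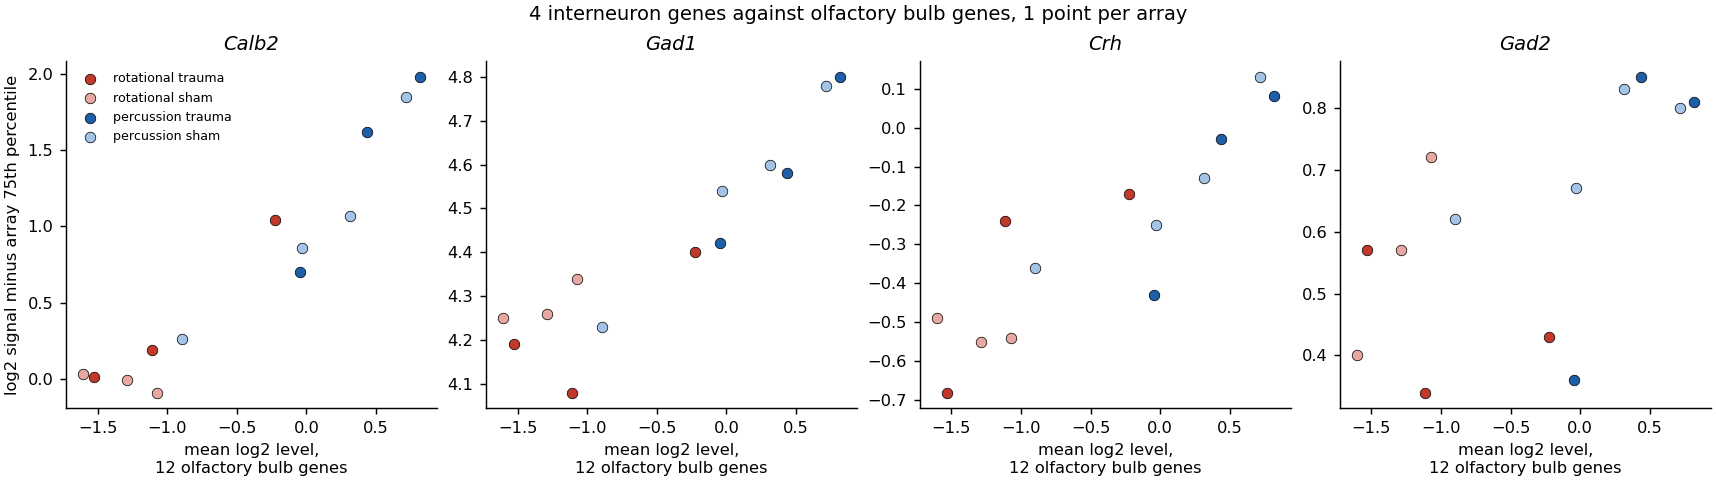
Level of Calb2, Gad1, Crh and Gad2 (vertical axes, log2 signal minus the array's 75th percentile) against the mean level of 12 olfactory bulb genes on the same array (horizontal axes, same scale), 1 point per array coloured by group. Rotational trauma 3 stands apart from the other rotational arrays in the Calb2 panel at 1.04, and percussion sham 3 is the lowest percussion array at 0.26.

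Single genes of that list show the same arrays as high. Th encodes tyrosine hydroxylase, the enzyme of dopamine synthesis, which bulb interneurons make. Th was at −0.73, −0.97 and −0.24 after rotational trauma and at −0.86, −0.87 and −0.92 in rotational sham. It was at 1.12, 0.07 and 0.83 after percussion trauma and at 1.40, 0.16, −0.73 and 0.56 in percussion sham. Rotational trauma 3 was the highest rotational array and percussion sham 3 the lowest percussion array, as for Calb2.

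Scgn encodes secretagogin, a calcium-binding protein of bulb interneurons. It was at −2.34, −2.17 and −0.99 after rotational trauma and at −2.20, −1.81 and −2.08 in rotational sham. It was at 0.39, −1 and −0.27 after percussion trauma and at 0.10, −0.94, −1.90 and −0.46 in percussion sham. Rotational trauma 3 and percussion sham 3 again stood at the high and low end of their models. Scgn and Doc2g correlated with Calb2 at 0.95 and 0.93. Of the 12 genes 10 were well above background on 13 of 13 arrays, S100a5 on 10 and Trh on 11. Tbx21 and Etv1 did not follow Calb2 (−0.37 and −0.08).

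As a list the bulb genes were higher after rotational trauma in 9 of 12 cases (median 0.25) and after percussion trauma in 12 of 12 (median 0.33), with 0 past the threshold in either. Trh (1.33) and Tshz1 (−0.13) had the lowest p after rotational trauma, and Etv1 (0.29) after percussion trauma. The part of olfactory tissue in the levels of Calb2, Gad1 and Crh, or of Cort, Pvalb and Vip, was not tested. With 1 array left out the rotational difference of Calb2 ran from 0.13 (without rotational trauma 3) to 0.64 (without rotational trauma 2). The percussion one ran from 0.15 (without percussion trauma 1) to 0.79 (without percussion trauma 2), with 0.17 without percussion sham 3 and 0.70 without percussion sham 1.

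The sham groups were also set against each other. In percussion sham against rotational sham, Calb2 was higher by 1.04 (2.05-fold, adjusted p = 0.0739 by limma), Crh by 0.38 (adjusted p = 0.106) and Npy by 0.23 (adjusted p = 0.0556), while Gad1 had 0.26 (adjusted p = 0.18) with groups that overlapped. Percussion sham lay wholly above rotational sham for Calb2, Crh and Npy and wholly below it for Cck. That is 4 of 10 genes whose groups do not overlap, which is the share among all genes (39.9%). For Cck the highest percussion sham value was 7.769 and the lowest rotational sham value 7.77. On the second probes of Npy and Crh the sham groups overlapped. Their differences were 0.10 (adjusted p = 0.326 by limma over all kept probes) for Npy and 0.39 (adjusted p = 0.144) for Crh. None of the 10 passed the adjusted p, which 21.6% of all genes did. Of the 12 bulb genes 10 were higher in percussion sham and 5 of them passed, with a median of 1.23. Dcx, a gene of migrating young neurons, had the lowest p among them with 1.09 (adjusted p = 0.0108). The models were run on different slides, and slide and model cannot be told apart.

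Genes around the 10 were read from lists of the same pathways, and 0 members of any of them passed the adjusted p in either trauma comparison. Of 6 genes of GABA synthesis, packaging, uptake and breakdown, 1 was higher and 5 lower after rotational trauma (median −0.07), and 4 were higher and 2 lower after percussion trauma (median 0.06). Slc6a11 (0.17) and Abat (−0.09) had the lowest p after rotational trauma, and Abat (0.09) and Gad2 after percussion trauma. Of 10 measured interneuron transcription factors, 3 were higher and 7 lower after rotational trauma (median −0.05), and 6 were higher and 4 lower after percussion trauma (median 0.09). Lhx6, the factor that specifies Pvalb and Sst cells, had −0.24 after percussion trauma (adjusted p = 0.355 by limma). Nr2f2, a factor of interneurons from the caudal ganglionic eminence, had 0.58 (adjusted p = 0.306). After rotational trauma the genes of lowest p were Nr2f2 (0.29) and Satb1 (−0.10).

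Other subclass markers, 20 of 21 measured, were split 7 higher and 13 lower after rotational trauma, and 9 higher and 11 lower after percussion trauma. Nos1, the neuronal nitric oxide synthase, had 0.51 after rotational trauma (adjusted p = 0.654), and Lamp5, a marker of neurogliaform cells, had −0.36 (adjusted p = 0.77). Adarb2 (0.25) and Nxph1 (−0.17) had the lowest p after percussion trauma. Perineuronal net genes, which coat Pvalb cells with matrix, were split 2 and 4 after rotational and 4 and 2 after percussion trauma, where Tnr, encoding tenascin-R, had −0.26 (adjusted p = 0.279) and Bcan 0.10. After rotational trauma Bcan had 0.08 and Hapln1 −0.16.

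Receptors for the peptides, 10 of 14 measured, were split evenly after rotational trauma, 5 higher and 5 lower. After percussion trauma 2 were higher and 8 lower, with a median of −0.09 against 0.00 for all genes. Npy1r, a receptor of neuropeptide Y, had −0.26 (SE 0.10, adjusted p = 0.377 by limma). Crhr1, the main brain receptor of corticotropin-releasing hormone, had 0.24 (adjusted p = 0.56). All 4 measured somatostatin receptors were among those below 0 after percussion trauma: Sstr1 with −0.04, Sstr2 with −0.08, Sstr3 with −0.11 and Sstr4 with −0.10. Cckbr, the cholecystokinin receptor of the brain, had −0.19 after rotational and −0.27 after percussion trauma, and Sstr2 had 0.18 after rotational trauma.

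Genes that process and pack peptides, 11 of 11 measured, were split 4 higher and 7 lower after rotational trauma, and 3 higher and 8 lower after percussion trauma (median −0.04 in each). Pcsk1, a convertase that cuts peptide precursors, had −0.10 and −0.18 (adjusted p = 0.388 for the percussion value). Chga had 0.05 after rotational trauma and Pam 0.26 after percussion trauma. Of 15 other neuropeptide genes 10 were higher and 5 lower after rotational trauma, and 7 were higher and 8 lower after percussion trauma. Gal, the galanin gene, had 0.98 after rotational trauma (SE 0.47, adjusted p = 0.77 by limma). Trh, the thyrotropin-releasing hormone gene, had 0.84 after percussion trauma (SE 0.80, adjusted p = 0.725), and it is also on the bulb list. The lowest p below 0 was that of Hcrt after rotational trauma (−0.22) and of Pnoc after percussion trauma (−0.21).

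**Figure D5:**
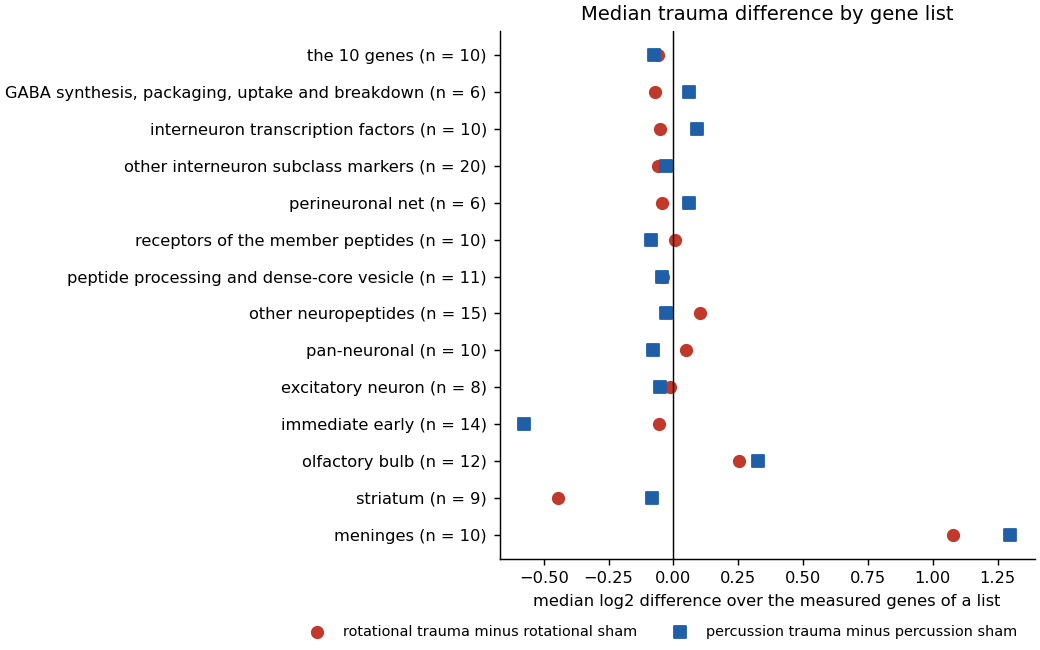
Median log2 difference over the measured genes of each list (horizontal axis), for rotational trauma minus rotational sham (circles) and percussion trauma minus percussion sham (squares), with the number of measured genes in brackets. The 10 genes and the interneuron lists lie between −0.10 and 0.10, while the immediate early genes lie at −0.58 after percussion trauma and the meningeal genes at 1.08 and 1.30.

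The genes whose pattern over the 13 arrays, centred within each model, was most like each of the 10 were ranked by Pearson's r. The ranking took all tested genes outside the set of 10. For Cort they were Spryd3 (0.91) and Anapc11 (0.90), and for Npy the nearest was Alkbh2 (0.97). For Pvalb they were Ciao3 (0.96) and Gria3 (0.95), and for Vip Eid2 and Gria4, 0.94 and 0.92 in that order, so a subunit gene of the AMPA-type glutamate receptor was second in both. For Calb2 they were Ppm1j (0.98) and Map3k1 (0.97), for Crh Mrap (0.92) and Ankrd55 (0.90), and for Gad1 Zfp385d (0.97) and an uncharacterised locus (0.96). For Gad2 they were Hoga1 (0.85) and Kcnd2 (0.84). The nearest gene to Sst was Ly6e (0.86), and the 2 nearest to Cck were transcripts without a gene name here. Pairs inside the set were computed apart. For none of the 10 genes did the r with another member reach that with its second-nearest outside gene. The outside genes were picked as the highest of all other tested genes, and the members are few. This comparison therefore cannot show whether the members vary together. The highest r inside the set was 0.88, for Calb2 and Crh.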

How the data were processed

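Gene expression was measured in 13 frontal cortex samples, 1 array each. Per the file headers, the authors used Agilent Feature Extraction 10.5.1.1 to read an array design annotated to rn4, and the deposited processed signal is a background-subtracted intensity. The authors also deposited a table of log2 values, which is quantile-normalised by its values and was used as an alternative. Each array had 62976 spots, and 58717 were used after 4259 control spots were left out. Outlier spots were set missing and the spots of a probe averaged, which gave 30367 probes.

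The log2 signal minus each array's 75th percentile was used. Probes entered if 1 or more groups had them well above background throughout (20410 probes), and the brightest kept probe stood for its gene (17577 genes). Probe names were updated from a RefSeq table of GRCr8: 18006 by accession, 2654 by symbol and 559 by synonym, while 9148 kept the name in the file. A linear model with 4 group means over all 13 arrays was fitted with limma 3.58.1 in R 4.3.3 (9 residual degrees of freedom), with two-sided tests and Benjamini-Hochberg adjustment over all genes at 0.05. It was tested on simulated data. Figures used Python 3.11.15 with matplotlib 3.10.9. The number of arrays limits the precision.

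The 10 genes and the gene lists were chosen with earlier results of these data known. Besides the 10 genes, each list whose counts the text gives names its gene of lowest p per direction in each trauma comparison. Th, Scgn, Doc2g, Tbx21, Gfap, Sox9, the somatostatin receptors, Cckbr after percussion trauma and Arc in the sham groups were chosen after their values were seen. Same-numbered trauma and sham arrays correlated in their deviations at 0.101, 0.264 and 0.015 (rotational) and at 0.273, −0.019 and −0.012 (percussion), so the replicate numbers were not taken as pairs. Alternatives were the scaling, background correction, deposited table, probe filter, probe choice, samples fitted, array weights, slide row, replicate block and leaving out each array. Fitting every kept probe was added after the data were seen. Some results are not reported here.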

Additional observations from a re-analysis of the deposited data

How the results depend on the processing

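In the 2 trauma comparisons, Cort and Npy after percussion trauma kept their sign in all 25 alternatives, from −0.71 to −0.50 and from −0.35 to −0.18. They passed only without the probe filter (adjusted p = 0.0227 and 0.0371), where the count of the 10 genes was 2 for percussion and, with Npy at 0.049, 1 for the difference. Their unadjusted p was then 0.0019 and 0.00384, higher than with the filter (0.00133 and 0.00233). Of the 3113 genes called there, 2838 were among the 8680 that the filter had removed. The count was 1 (Cort, adjusted p = 0.0459) for the mean with array weights. For the sham groups it was 1 with quantile normalisation, pan-neuronal scaling, normexp and the deposited table, 3 with array weights and 0 to 1 with an array left out. The cause of the other changes below was not tested.

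Counts over all genes for rotational trauma (2) were 0 with quantile normalisation, 5 with normexp or the mean of probes, 1859 without a filter, 374 with array weights, 6 with only its own groups and 0 to 12 with an array left out. For percussion trauma (0) they were 3 with pan-neuronal scaling, 1 with the deposited table or the replicate block, 3113 without a filter and 0 to 6 with an array left out. For the mean (0) they were 232 with array weights, 31 with the replicate block and 0 to 20 with an array left out. For the difference (2) they were 1 with quantile normalisation or the replicate block, 6 with pan-neuronal scaling, 0 with normexp, the deposited table or the strict filter, 3896 without a filter, 5 with array weights and 0 to 11 with an array left out. For the sham groups (3796) they were 7494 without a filter, 7855 with array weights, 92 with the replicate block and 1755 to 4246 with an array left out. The replicate block moved no call among the 10 genes.

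Signs turned only for differences near 0. For rotational trauma these were Cck (0.008, deposited table), Gad1 (0.013, array weights) and Pvalb (0.016, slide row), and with an array left out Pvalb ran from −0.184 to 0.033, Sst from −0.153 to 0.033 and Gad1 from −0.145 to 0.015. For percussion trauma Cck was −0.011 with median scaling, −0.086 with quantile normalisation, −0.039 with the deposited table and −0.053 with array weights, and Crh was −0.005 with median scaling and −0.014 with the mean of probes. Vip was 0.017 and Gad2 0.071 with pan-neuronal scaling. With an array left out Crh ran from −0.081 to 0.174, Gad1 from −0.041 to 0.151, Gad2 from −0.138 to 0.107 and Cck from −0.051 to 0.069.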
